A study of Mus musculus with 12 samples.

Results

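Synaptotagmins are membrane proteins that carry a pair of C2 domains, the calcium- and lipid-binding modules with which they attach vesicles to target membranes and act on the SNARE fusion machinery. They are best known from neurons and endocrine cells, where calcium binding to Syt1 triggers fast release and Syt7, a slower sensor of higher calcium affinity, serves the exocytosis of lysosomes and dense-core granules and the repair of the plasma membrane. Several members, among them Syt11, Syt12 and Syt13, lack the residues needed to bind calcium, and are placed in vesicle trafficking by other routes.

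The values described here are those of Syt1, Syt3, Syt5, Syt7, Syt9, Syt11, Syt12, Syt13, Syt16 and Syt17, 10 genes picked by their symbols out of the 17995 genes with a value. Of these 10, 9 had a row in the expression table and Syt9 had none. Syt7 was singled out by its difference between shM5 and shNC in C18-4 cells, and the family was gathered around it with that result known. Values of the members in that comparison are therefore given as a description without a p-value. The comparison of the lines shares its C18-4 libraries, so Syt7 has no p-value there either. Syt12 has none there, since it passed a filter on low values only through C18-4 cells. Tests of members are given for Syt7 and Syt11 in TM4 cells and for Syt11 between the lines.

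The study asked by which genes the M5 muscarinic acetylcholine receptor (Chrm5) acts in the cells of the seminiferous epithelium. It measured mRNA by RNA-seq in C18-4 cells, derived from mouse spermatogonial stem cells, and in TM4 cells, derived from mouse Sertoli cells, both labelled with the strain IRC. Cells were stably transfected with lentiviral shRNA. shM5 was a mixture of 3 shRNAs against Chrm5 (labelled CM5 in C18-4 and TMM5 in TM4), and shNC was the control shRNA (labelled C3NC and TM3NC). Each of the 4 groups had 3 libraries, 12 in all. No source used here says whether the 3 libraries of a group came from separate cultures, so the p-values measure the spread between these libraries, which may be technical.

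The deposited values are RPKM, that is reads scaled to gene length in kilobases and to library size. Levels of different genes are set side by side below, which rests on the length used for each gene. The annotation that set those lengths is not given in the sources used here. Library depth was put at about 13400000 to 14300000 reads from the RPKM worth of 1 read. That worth was sought in a window set beforehand, which bounds the estimate. At that depth 1 read on a transcript of 2 kb was worth about 0.0361 RPKM and 3 reads about 0.108 RPKM, so values around or below 0.1 RPKM rest on a few reads. Chrm5 itself was at most 0.01 RPKM in every library, so its knockdown could not be checked in these values at this depth. By immunofluorescence staining, the study reports less M5 protein with shM5 in both lines. Of 12 spermatogonial stem cell markers, only Etv5 and Id4 reached a mean of 1 RPKM in C18-4 cells, and 8, among them Ddx4, Dazl and Zbtb16, lay below 0.1 RPKM. In TM4 cells Bcl6b and Etv5 reached 1 RPKM. The 12 markers summed to 4.84 to 6 RPKM in C18-4 shNC and 9.72 to 16.2 RPKM in TM4 shNC. Of 7 fibroblast markers, 5 reached 1 RPKM in C18-4 and 6 in TM4 cells. Of 10 Sertoli markers with a value, Gata4, Inhbb, Sox9 and Tjp1 reached 1 RPKM in TM4 cells while Wt1, Clu, Cldn11 and Gata1 lay below 0.1, and Wt1, Clu and Rhox5 were above 1 RPKM in C18-4 cells. The lines are called by their labels below.

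Some libraries stood apart. TM4 shNC replicate 3 differed from TM4 shNC replicates 1 and 2 by a root mean square of 0.640 and 0.642 on the log2 scale, but from the 3 TM4 shM5 libraries by 0.202 to 0.257. An ATF4 sum was formed from the RPKM of the stress factor gene Atf4 and of its targets Ddit3, Trib3, Chac1, Asns, Atf5, Sesn2 and Psat1. It was 2052 and 2045 in TM4 shNC replicates 1 and 2, 1019.5 in replicate 3, and 952 to 965 in TM4 shM5. In C18-4 cells replicate 3 of both groups lay 0.376 to 0.438 from replicates 1 and 2 of its own group, which differed among themselves by 0.200 and 0.201. The ATF4 sum was 1008 and 1005 in C18-4 shNC replicates 1 and 2 and 1449 in replicate 3, and 973, 970.3 and 1374 in C18-4 shM5 replicates 1, 2 and 3. The part of these states in the results below was not tested, and the results that rest on such libraries are given with and without them.

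The members were compared by exact shared stretches of sequence. In the mouse transcripts of GENCODE M21 (GRCm38), 0 of the 45 pairs of members shared a stretch of 35 bases. The study's alignment allowed mismatches, and whether each read was assigned to the right member was not tested. The longest coding stretch shared by any pair had 25 bases (Syt1 and Syt5), and Syt7 shared at most 19 bases with another member, Syt3. That stretch lies in the code for the second C2 domain of Syt7. The 60 coding bases of Syt7 around it are shown first, with the stretch shared with Syt3 in capitals. The best ungapped match in any annotated coding transcript follows for Syt3 and for the 3 other members that passed the filter on low values in C18-4 cells, with the bases identical to Syt7 in capitals.
Syt7: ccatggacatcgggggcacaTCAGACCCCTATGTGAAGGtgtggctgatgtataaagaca
Syt3: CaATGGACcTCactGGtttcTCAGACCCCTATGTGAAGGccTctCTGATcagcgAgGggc
Syt1: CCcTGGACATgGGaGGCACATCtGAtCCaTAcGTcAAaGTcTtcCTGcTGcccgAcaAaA
Syt12: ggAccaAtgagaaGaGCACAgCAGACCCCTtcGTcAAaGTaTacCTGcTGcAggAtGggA
Syt11: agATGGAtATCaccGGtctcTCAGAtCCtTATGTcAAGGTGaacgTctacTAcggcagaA
Of the 60 bases, 38 were identical in Syt3, 40 in Syt1, 33 in Syt12 and 32 in Syt11, and over all 9 other members the count ran from 28 to 42, the highest being that of Syt9, which has no row.

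Syt7 (gene ID 54525) was the most abundant synaptotagmin in C18-4 shNC cells, was lower in C18-4 shM5 cells, and was close to absent from TM4 cells. In C18-4 shNC it had 20.22, 21.15 and 23.12 RPKM in replicates 1, 2 and 3, and in C18-4 shM5 7.36, 8.14 and 9.48 RPKM. Every shM5 library lay below every shNC library. The means were 21.5 ± 1.48 RPKM and 8.33 ± 1.07 RPKM (SD, n = 3), a difference of -1.36 on the log2(RPKM + 0.1) scale with a standard error (SE) of 0.11, or 2.57-fold lower. Matched by replicate number, the shM5 value was 0.364, 0.385 and 0.41 of the shNC value. Since same-numbered C18-4 libraries deviated together, the fit was repeated with replicate number as a block, which left the estimate at -1.36 with an SE of 0.07. Without replicate 3 of both groups the difference was -1.41 with an SE of 0.07. In these bulk samples fewer cells with the transcript and less of it per cell cannot be told apart. By size of its log2 fold change Syt7 ranked 35 of 11611 genes in C18-4 cells. The rank was 6 with a pseudocount of 1 RPKM and 53 of 16230 genes without the filter on low values. A high rank follows from the choice of Syt7 by this comparison, so nothing is read from it.

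**Figure D1:**
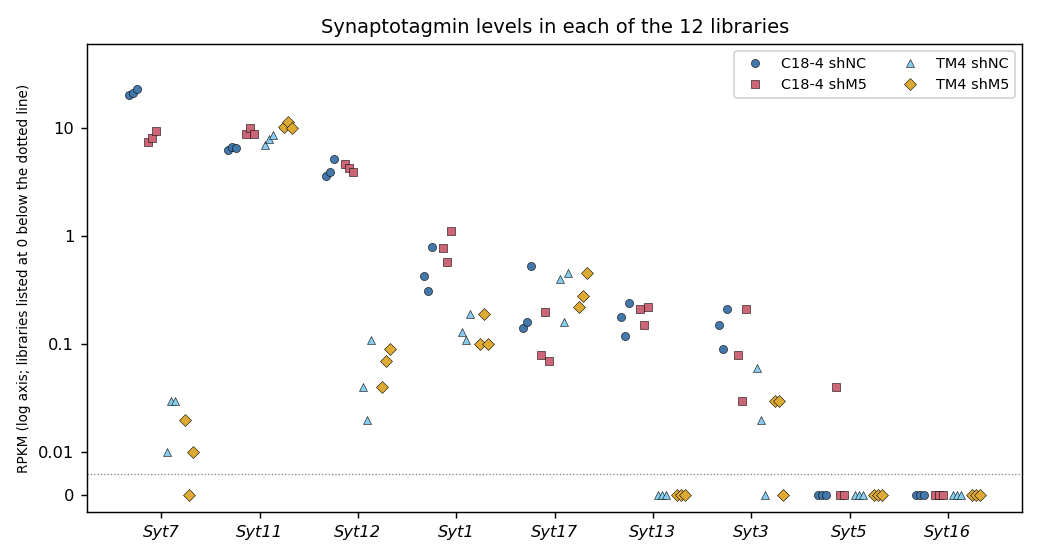
RPKM (log axis, with libraries listed at 0 below the dotted line) of the 9 members with a value in each of the 12 libraries, 1 point per library, coloured by group. Syt7 stood near 20 RPKM in C18-4 shNC and near 8 RPKM in C18-4 shM5 but at 0.03 RPKM or less in TM4, Syt11 lay between 6.29 and 11.41 RPKM everywhere, and Syt16 was listed at 0 in all 12 libraries.

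In TM4 cells Syt7 had 0.01, 0.03 and 0.03 RPKM in shNC replicates 1, 2 and 3 and 0.02, 0 and 0.01 RPKM in shM5. These values overlap, rest on a few reads at most, and were below the filter of a mean of 0.5 RPKM. In the fit without that filter the log2 difference was -0.16 with an SE of 0.13 (limma adjusted p = 0.459), so no response of Syt7 to shM5 was detectable in TM4 cells at this depth. Whether the response differed between the lines was not tested.

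The Syt7 gene lies at chr19:10389090-10453180 on the plus strand (GRCm38) and has 15 annotated transcripts, of which 9 are protein-coding with lengths of 1344 to 6624 bases. An RPKM value per gene does not tell these isoforms apart. The lincRNA Gm26859 overlaps the locus on the opposite strand and AC124169.1 on the same strand. Neither had a row of its own, and whether reads were counted by strand is not given in the sources used here.

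Syt11 (229521; chr3:88744700-88775164, minus strand), which does not bind calcium and is known from lysosomal and phagosomal trafficking, was the main synaptotagmin of TM4 cells and had more RPKM in shM5 than in shNC libraries of both lines. In C18-4 shNC it had 6.29, 6.68 and 6.58 RPKM, and in C18-4 shM5 8.90, 10.04 and 8.77 RPKM. The groups did not overlap, and the means were 6.52 ± 0.203 and 9.24 ± 0.699 RPKM (SD, n = 3), a log2 difference of 0.49 with an SE of 0.10 (0.08 with the block, and 0.54 with an SE of 0.09 without replicate 3 of both groups). In TM4 shNC it had 7.03, 7.99 and 8.61 RPKM, and in TM4 shM5 10.31, 11.41 and 10.03 RPKM. All 3 TM4 shM5 libraries were again above all 3 shNC libraries, with means of 7.88 ± 0.796 and 10.6 ± 0.729 RPKM (SD, n = 3).

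The difference of Syt11 in TM4 cells did not pass the test over all genes when the 6 libraries were used. The log2 difference was 0.42 with an SE of 0.11 and a limma adjusted p of 0.192, in a fit that called 0 of 11016 genes (0.00%), with 2866 genes (26.0%) at an unadjusted p below 0.05. Groups that did not overlap, with shM5 higher, were found for 15.7% of those genes. Without TM4 shNC replicate 3, the library next to shM5, the log2 difference of Syt11 was 0.49 with an SE of 0.09 and a limma adjusted p of 0.00151. That fit called 7433 of 11026 genes, 67.4% of all and 36.5% as higher and 30.9% as lower, so most genes were called beside it. TM4 shNC replicate 3 had the highest Syt11 value of its group.

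Syt12 (171180; chr19:4445908-4477447, minus strand), a calcium-independent member known from brain, was expressed in C18-4 cells, at overlapping RPKM in both groups. In C18-4 shNC it had 3.63, 3.93 and 5.12 RPKM, and in C18-4 shM5 4.67, 4.26 and 3.94 RPKM. The groups overlapped, and their means of 4.23 ± 0.788 and 4.29 ± 0.366 RPKM (SD, n = 3) differed by 0.03 on the log2 scale with an SE of 0.16. The estimate turned on replicate 3, where the shM5 value was 0.77 of the shNC value, against 1.29 and 1.08 in replicates 1 and 2, and without replicate 3 of both groups it was 0.23 with an SE of 0.11. Leaving out shNC replicate 1 or 2 or shM5 replicate 1 turned its sign, to -0.07, -0.01 and -0.03. In TM4 cells Syt12 did not exceed 0.11 RPKM in any library.

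Syt1 (20979; chr10:108497650-109010982, minus strand), the fast calcium sensor of synaptic vesicles, had 0.43, 0.31 and 0.79 RPKM in C18-4 shNC and 0.77, 0.57 and 1.11 RPKM in C18-4 shM5. The groups overlapped, but within each replicate number the shM5 library was higher, at 1.79, 1.84 and 1.41 of the shNC value. The log2 difference was 0.62 with an SE of 0.36, or 0.22 with the block. In TM4 cells it lay between 0.10 and 0.19 RPKM in all 6 libraries.

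**Figure D2:**
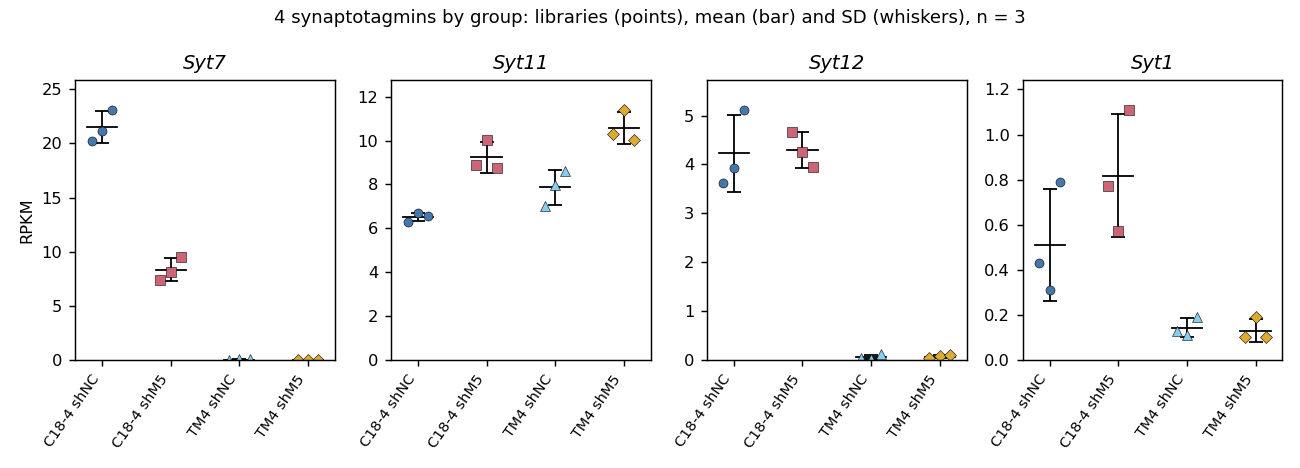
RPKM (linear axes that start at 0, one scale per gene) of Syt7, Syt11, Syt12 and Syt1 in the 4 groups, with 1 point per library, a bar at the mean and whiskers of 1 SD (n = 3). Syt7 was lower and Syt11 higher in C18-4 shM5 without overlap, Syt12 and Syt1 overlapped between C18-4 groups, and of the 4 genes Syt11 alone was above 1 RPKM in TM4.

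The other members were scarce or not detected. Syt13, a member without calcium binding, lay between 0.12 and 0.24 RPKM in the 6 C18-4 libraries and was listed at 0 in the 6 TM4 libraries. Syt17, which lacks a membrane-spanning segment, lay between 0.07 and 0.53 RPKM in C18-4 and between 0.16 and 0.46 RPKM in TM4. Syt3, a calcium sensor of the plasma membrane, was at most 0.21 RPKM in C18-4 and 0.06 RPKM in TM4, and overlaps 1700008O03Rik, a gene on the other strand that has its own row. Syt5 was above 0 in 1 library only, at 0.04 RPKM, and Syt16 was listed at 0 in all 12. The 7 other synaptotagmins with a row (Syt2, Syt4, Syt6, Syt8, Syt10, Syt14 and Syt15) had maxima of 0.01 to 0.21 RPKM, and none passed the filter in any comparison. Among members, 4 of the 9 with a row passed it in C18-4 cells (Syt1, Syt7, Syt11 and Syt12), and 1 in TM4 cells (Syt11).

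In order of mean RPKM, C18-4 shNC cells had Syt7, Syt11, Syt12 and Syt1, and the libraries of neighbours in this order did not overlap. In C18-4 shM5 cells Syt11 and Syt7 came next to each other, at 8.77 to 10.04 and 7.36 to 9.48 RPKM, and their ranges overlapped, with Syt12 and Syt1 after them. In both TM4 groups Syt11 was followed by Syt17 and Syt1, with a Syt11 value of at least 7.03 RPKM against at most 0.46 RPKM for Syt17. The ranges of Syt17 and Syt1 overlapped in TM4 shNC, at 0.16 to 0.46 and 0.11 to 0.19 RPKM, and did not in TM4 shM5, at 0.22 to 0.46 and 0.10 to 0.19 RPKM.

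The summed RPKM of all 16 synaptotagmins with a row was 33.7 ± 2.93 in C18-4 shNC and 23.3 ± 0.947 in C18-4 shM5 (SD, n = 3). Without Syt7 the sum was 12.2 ± 1.45 and 15 ± 0.391 RPKM. Syt7 made up 63.9 ± 1.16% of the sum in C18-4 shNC and 35.6 ± 3.26% in C18-4 shM5, while the share of Syt11 was 19.4 ± 1.42% and 39.6 ± 3.15%. In shM5 replicates 1 and 2 Syt11 held the largest share, and in replicate 3 Syt7 held 39.3% and Syt11 36.3%. In TM4 the sum was 8.65 ± 0.907 RPKM with shNC and 11.2 ± 0.834 RPKM with shM5, of which Syt11 made up 91.1 ± 1.72% and 94.1 ± 1.55%. These shares and the order of the members depend on the length used for each gene. Annotated coding transcripts run from 1344 to 6624 bases for Syt7 and from 1319 to 5020 bases for Syt11.

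**Figure D3:**
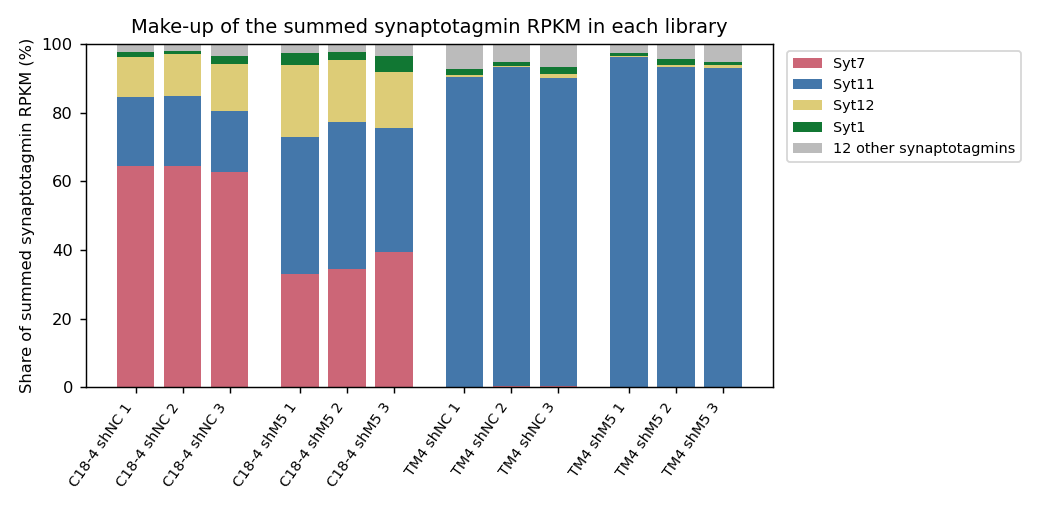
Share (percent, bars stacked to 100) of Syt7, Syt11, Syt12, Syt1 and 12 other synaptotagmins in the summed synaptotagmin RPKM of each library. Syt7 held 62.6 to 64.6% of the sum in C18-4 shNC and 33 to 39.3% in C18-4 shM5, and Syt11 held 89.8 to 95.9% in TM4.

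In the C18-4 comparison 1 of the 4 members that passed the filter was higher and 1 lower without overlap of the groups, where 9.30% and 9.55% of all genes tested were. Since this comparison chose Syt7, nothing is read from these counts.

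The lines were compared under the control shRNA, a comparison that shares its shNC libraries with those above. Syt7 was higher in C18-4 than in TM4 cells by 7.45 on the log2(RPKM + 0.1) scale, with an SE of 0.16, and every C18-4 library was above every TM4 library. Because the TM4 values rest on so few reads, the size of this fold depends on the scale and is no bound. It was 4.46 with a pseudocount of 1 RPKM and 6.37 after quantile normalisation. In the shM5 libraries, where C18-4 cells had less Syt7, it was 6.26 with an SE of 0.16. Syt12 was higher in C18-4 cells by 4.81 with an SE of 0.26, and by 2.30 with a pseudocount of 1 RPKM, 3.56 after quantile normalisation and 4.73 in the shM5 libraries. Both genes passed the filter only through C18-4 cells, where they are high, so that they were called gives no count in support. The fit called 6517 of 11810 genes (55.2%), 34.7% as higher and 20.5% as lower in C18-4, and 39.3% of genes were higher there without overlap. In the shM5 libraries 71.5% of genes were called.

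Syt11 did not pass the test between the lines. Its C18-4 shNC values of 6.29 to 6.68 RPKM lay below the TM4 shNC values of 7.03 to 8.61 RPKM without overlap, as did 24.3% of genes, and the log2 difference was -0.27 with an SE of 0.13 (limma adjusted p = 0.124). In the shM5 libraries it was -0.19 with an SE of 0.09 (limma adjusted p = 0.0859), where the ranges of 8.77 to 10.04 and 10.03 to 11.41 RPKM touched. A fit of all 12 libraries with shRNA as a term gave -0.23 with an SE of 0.07 and a limma adjusted p of 0.0139, and quantile normalisation of the shNC libraries -0.49 with an adjusted p of 0.0173. The fit of all 12 libraries called 8347 of 11773 genes, so most genes were called beside Syt11. The median of all genes was 0.15 in the shNC fit and -0.01 after quantile normalisation, and the number of genes called higher in C18-4 was 4095 of 6517 and 3281 of 6638 (27.8% and in all 56.2% of those tested).

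The genes around synaptotagmin in exocytosis were followed by 7 lists: other C2 proteins of exocytosis, SNARE proteins, SNARE regulators, exocyst subunits with secretory Rab GTPases, lysosomal proteins, annexins, and proteins of dense-core granules and synaptic vesicles. The C2 list also holds Rph3al, a relative of rabphilin that has no C2 domain itself. In C18-4 cells 119 genes of the 7 lists were tested between shM5 and shNC. None was called without the block, in a fit that called 68 of 11611 genes (0.586%), whereas 16 (13.4%), 7 higher and 9 lower, were called with it, against 11.9% of all genes tested (5.21% higher and 6.73% lower). Without replicate 3 of both groups 31 of 120 (25.8%) were called, 22 higher and 9 lower, against 26.2% of all genes. Both shares of list genes called are near those of all genes, and the calls below describe single genes and not the lists. Calls of all genes were not split by direction without replicate 3, so nothing is read from the directions of a list there. The list medians lay between -0.05 and 0.23 on the log2 scale beside -0.00 for all genes.

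Of 12 genes of the C2 list tested in C18-4 cells with the block, 2 fell and 1 rose with shM5, and without replicate 3 of both groups 2 were lower and 2 higher. Sytl2, a synaptotagmin-like effector of Rab27, had 3.58, 3.33 and 5.56 RPKM in shNC and 2.23, 2.49 and 2.63 RPKM in shM5, a log2 difference of -0.71 with an SE of 0.14 (limma adjusted p = 0.0184). Rph3al, the secretory granule protein Noc2 without C2 domains, went from 3.19 ± 0.749 to 2.09 ± 0.534 RPKM (SD, n = 3; limma adjusted p = 0.0199). Esyt1, a tether between endoplasmic reticulum and plasma membrane, rose from 41.6 ± 9.4 to 51.1 ± 4.44 RPKM (limma adjusted p = 0.0315).

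Of 32 SNARE proteins tested, 2 fell and 0 rose with the block, and 2 were lower and 2 higher without replicate 3 of both groups. Vamp2, a vesicle SNARE, had 20.45, 21.87 and 21.10 RPKM in shNC and 14.83, 14.18 and 17.83 RPKM in shM5, with no overlap and a log2 difference of -0.44 with an SE of 0.08 (limma adjusted p = 0.0139). Snap23, a SNARE of the plasma membrane, fell by 0.29 on the log2 scale. Of 15 regulators 1 rose, Nsf, the ATPase that takes SNARE complexes apart, from 41.6 ± 3.7 to 52.9 ± 2.69 RPKM (SD, n = 3). Of 19 exocyst subunits and Rab GTPases 2 rose, Rab8a from 42 ± 1.3 to 55.9 ± 1.59 RPKM and Rab11b from 79.3 ± 9.5 to 93.9 ± 7 RPKM, both GTPases of transport to the cell surface.

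Of 25 lysosomal genes 3 fell with shM5 in the blocked fit, by 0.38 for the protease gene Ctsb, 0.27 for the proton pump subunit Atp6v1a and 0.20 for the membrane protein Cd63, where fell by is on the log2 scale. Without replicate 3 of both groups 7 lysosomal genes were higher and 3 lower, in the fit where 22 genes of all lists were higher and 9 lower. Of 10 annexins, calcium-dependent membrane-binding proteins, 1 fell and 2 rose. Anxa8 had 5.19, 4.64 and 2.20 RPKM in shNC and 1.40, 1.79 and 1.40 RPKM in shM5 (log2 difference -1.25, SE 0.21, limma adjusted p = 0.0108). Anxa1 and Anxa5 rose by 0.32 and 0.31. Of 6 granule and vesicle proteins, Cpe, a prohormone-processing enzyme, rose by 0.31 and Sypl, a relative of synaptophysin, fell by 0.22, and without replicate 3 of both groups 4 of 7 were higher and 1 lower. Markers of neurons and neuroendocrine cells were low or absent but for Tubb3 and Syn1, and their summed RPKM was 16.6 to 18.6 in C18-4 shNC and 19.9 to 26.5 in C18-4 shM5, 25.4 to 33.4 in TM4 shNC and 29.4 to 31.4 in TM4 shM5. Their part in these results was not tested.

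**Figure D4:**
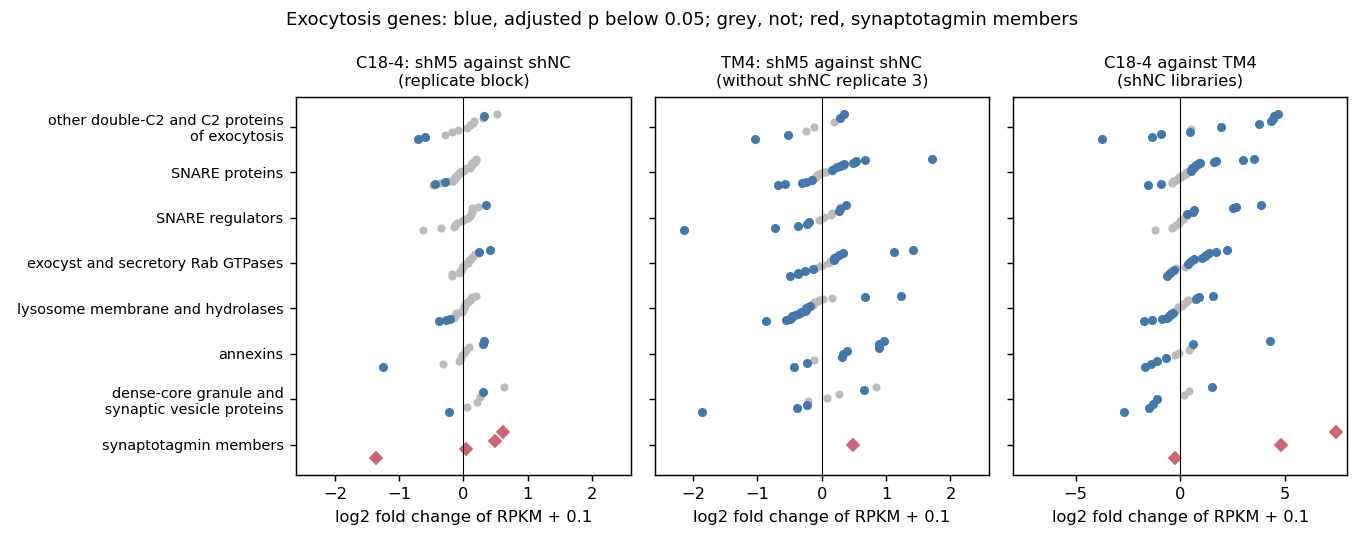
Log2 fold change of RPKM + 0.1 (x axes) of the tested genes of the 7 lists and of the members (red), for C18-4 shM5 against shNC with the replicate block, TM4 shM5 against shNC without shNC replicate 3, and C18-4 against TM4 in shNC libraries. Blue genes had a limma adjusted p below 0.05 in the fit shown, and those numbered 16 of 119, 69 of 110 and 68 of 118 in the 3 panels.

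In TM4 cells none of the 110 list genes tested was called with all 6 libraries. Without shNC replicate 3, 69 (62.7%) were called, 32 higher and 37 lower, beside 67.4% of all genes. Napb, an adaptor of Nsf, had 8.36 and 8.48 RPKM in shNC replicates 1 and 2 and 2.08 in replicate 3, next to 1.66, 1.87 and 1.97 RPKM in shM5. Anxa1 showed the reverse, with 214.76 and 224.14 RPKM against 405.31 in replicate 3 and 414.89 to 439.45 in shM5. Rab3a, a GTPase of secretory vesicles, had 6.14 and 5.22 RPKM against 11.29 in replicate 3 and 12.15 to 12.63 in shM5. In each of these 3 genes, shNC replicate 3 was nearer in value to shM5 than to replicates 1 and 2 of its own group. Of 25 lysosomal genes tested in the fit without it, 15 were lower and 2 higher with shM5, with a list median of -0.24 beside 0.04 for all genes. Of 9 annexins 6 were higher and 2 lower, with a list median of 0.33. Of all genes in that fit 36.5% were called higher and 30.9% lower. With all 6 libraries the medians of these lists were -0.16 and 0.20. The part that the state of shNC replicates 1 and 2 has in these counts was not tested.

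Between the lines 68 of 118 list genes (57.6%) were called in shNC libraries, 44 higher and 24 lower in C18-4 cells, against 55.2% of all genes. After quantile normalisation 39 were higher and 32 lower. Of 11 genes of the C2 list 7 were higher in C18-4 and 3 lower, and the list median was 1.94 beside 0.15 for all genes. Without the filter on low values 23 were tested, 10 higher and 5 lower, with a median of 0.39 beside 0.13. The highest of these genes were close to absent from TM4 and passed the filter only through C18-4, where they are high. Rph3al had 3.19 ± 0.749 RPKM in C18-4 and at most 0.06 in TM4. Rims3, a relative of the active-zone proteins, had 2.96 ± 1.03 RPKM and at most 0.07, and Unc13b, a priming factor of vesicles, had 3.33 ± 0.116 RPKM and at most 0.08 (SD, n = 3). Of 32 SNARE proteins 15 were higher and 2 lower in C18-4, among them Stx11 at 8.08 ± 1.55 RPKM against 2.42 ± 0.519 RPKM in TM4 (SD, n = 3). Of 15 regulators 6 were higher and 0 lower, with Stxbp2, a partner of syntaxins in granule release, at 24.6 ± 6.63 RPKM against 1.59 ± 0.173 RPKM (SD, n = 3). The medians of the SNARE and regulator lists were 0.33 and 0.16, beside 0.15 for all genes. After quantile normalisation 14 SNARE proteins were higher and 6 lower, and 5 regulators were higher and 3 lower. Of all genes in the shNC fit, 34.7% were called higher and 20.5% lower.

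The balance of the lysosomal and the granule and vesicle lists between the lines also depended on the settings. Of 25 lysosomal genes 8 were lower in C18-4 and 4 higher, but 3 lower and 4 higher without C18-4 shNC replicate 1, and 3 of each without C18-4 shNC replicate 2. The number called fell from 12 to 5 with the replicate block, and was 6 without TM4 shNC replicate 1 and 7 without TM4 shNC replicate 2. Ctsb was lower in C18-4, at 243 ± 50.2 RPKM against 615 ± 92 RPKM in TM4 (SD, n = 3). Tfeb, the transcription factor of lysosomal genes, was higher in C18-4 cells at 10.9 ± 1.26 RPKM against 3.86 ± 1.91 RPKM. Of 7 granule and vesicle proteins 4 were lower and 1 higher with a median of -1.12, whereas without the filter on low values 6 of 17 were lower and 7 higher with a median of 0.44. The secretory peptide gene Vgf was at 0.333 ± 0.211 RPKM in C18-4 and 2.62 ± 1.18 RPKM in TM4, and the vesicle protein gene Sv2a was at 5.55 ± 0.371 and 1.89 ± 0.197 RPKM. Rab27a, the GTPase that Sytl2 binds, was at 1.84 ± 0.314 RPKM in C18-4 and 0.327 ± 0.186 RPKM in TM4. Anxa8 had 4.01 ± 1.59 RPKM in C18-4 and at most 0.18 RPKM in TM4.

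The genes most like Syt7 were found by Pearson's r on log2(RPKM + 0.1), given as a description, since the libraries share treatment, state and depth. Over the 6 C18-4 libraries and 11040 genes whose mean reached 1 RPKM, the 5 highest were Cdc14b (r = 0.9967), a gene without symbol with ID 105246811 (0.9960), Tmtc3 (0.9956), Gm43828 (0.9955) and Flt4 (0.9954), and 150 genes had an r of at least 0.95. Flt4, the receptor of lymphatic growth factors, went from 2.16 to 0.78 RPKM in the means of C18-4 shNC and shM5 and was listed at 0 in the means of both TM4 groups. The others were not at 0 there. In the means of TM4 shNC against C18-4 shNC, Cdc14b had 7.25 against 5.31 RPKM and 105246811 had 201 against 21 RPKM. Tmtc3 had 11.3 against 19.9 RPKM and Gm43828 0.21 against 11.7 RPKM. Over the 6 C18-4 libraries Syt11 had an r of -0.95 to Syt7 and Syt12 of -0.09. Over all 12 libraries, which fall into separate clusters by line, the highest of 11156 genes included C1ql1 (0.9990), Vnn1 (0.9984), Nebl (0.9980) and Cadm1 (0.9979), and 1361 genes had an r of at least 0.95, Syt12 among them at 0.98. Each of these 4 was lower in C18-4 shM5 than in C18-4 shNC in the means, as C1ql1 at 3.55 against 7.15 RPKM, and was listed at 0 in the means of both TM4 groups.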

How the data were processed

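Transcripts of 12 libraries of C18-4 and TM4 cells (4 groups of 3) were measured by RNA-seq. The authors enriched mRNA with oligo(dT), sequenced it on an Illumina HiSeq, aligned reads with SOAPaligner and deposited RPKM values with 2 decimals for 17995 genes. The genome build and annotation behind them are not given in the sources used here. Groups and replicate numbers came from the sample titles, and every column was matched to 1 library by name.

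Values were analysed as log2(RPKM + 0.1) with limma 3.58.1 (trend, R 4.3.3) on genes whose mean in the libraries of a fit reached 0.5 RPKM, each comparison in its own libraries, with Benjamini-Hochberg adjustment over all genes tested and a call at an adjusted p below 0.05. RPKM are no counts, so no count test was run. Depth was estimated from the smallest steps of short single-transcript genes, 43 to 59 per library. The step was the median of RPKM times length in kilobases between 0.055 and 0.095. Since this window was set beforehand, it bounds the estimate, which is approximate. Depth limits the values of scarce genes by counting error only.

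Pairing was checked by correlating deviations from the group means. In C18-4 cells same-numbered libraries correlated at 0.439, 0.409 and 0.631, so the numbers were taken to pair the libraries and blocked values are given. This comes from the data, since no label states it, and replicates 1 and 2 also correlated across numbers (0.341 and 0.345). In TM4 cells the values were 0.073, 0.049 and 0.127 and between lines -0.225, -0.198 and -0.303, so these were not taken as paired.

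Members, gene lists and markers were chosen with earlier results of these data known. Named were all members, up to 3 called list genes with the largest fold change per list and comparison, and the 5 genes most like Syt7 (some genes that meet this rule are not reported here). Alternatives were the pseudocount, filter, scaling, block, threshold and libraries left out. Positions and coding sequences came from GENCODE M21 (GRCm38), with Python 3.11.15, pandas 2.3.3, numpy 2.4.6 and matplotlib 3.10.9.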

Additional observations from a re-analysis of the deposited data

Results flagged for a closer look

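Vamp5, a vesicle-associated membrane protein gene of the SNARE list, had lower values with shM5 in C18-4 cells and higher values in TM4 cells, without overlap of the groups in either line. Of all genes tested, 9.55% were lower without overlap in C18-4 cells and 15.7% higher without overlap in TM4 cells. The share of genes that meet both was not counted, so nothing is read from the pattern. Vamp5 is given for its values. The gene was not called in C18-4 cells with or without the replicate block, nor in TM4 cells with all libraries. In C18-4 cells it had 4.02, 3.71 and 5.68 RPKM with shNC and 3.09, 3.45 and 3.66 RPKM with shM5, means of 4.47 and 3.40 RPKM. In TM4 cells it had 0.31, 0.38 and 0.75 RPKM with shNC and 1.71, 1.09 and 1.34 RPKM with shM5, where the limma adjusted p was 0.192 with all libraries and 0.000441 without shNC replicate 3. The difference between the lines was not tested. No group of 3 libraries was searched for outlying values.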

How the results depend on the processing

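The number of genes called between shM5 and shNC in C18-4 cells, 68, was 4 without a filter on low values, 30 after rescaling RPKM to the same sum, 1386 with the replicate block, 3029 without replicate 3 of both groups and 0 at the study's threshold (adjusted p of at most 0.001 and absolute log2 ratio of at least 1). Leaving out 1 library gave 0 to 237, with 237 without shNC replicate 3, 31 without shM5 replicate 3 and 0 without any other. In TM4 cells the count of 0 became 8016 without replicate 3 of both groups, and leaving out 1 library gave 0 to 7433, with 7433 without shNC replicate 3 and 0 otherwise. Between the lines 6517 became 2265 at the study's threshold. In the unpaired comparisons the replicate block gave 0 calls in TM4 cells and 5441 between the lines, where it changed no call of a member. Of 106 fold changes of members under alternatives, 103 kept their sign and 3 turned it, those of Syt12 in C18-4 cells (0.03), which was -0.07 without shNC replicate 1, -0.01 without shNC replicate 2 and -0.03 without shM5 replicate 1, and 0.23 without replicate 3 of both groups. In 4 alternatives Syt11 passed the threshold that it had missed. Of the list genes named, 77 of 767 fold changes passed the threshold under an alternative only. The causes were not tested. Leaving out 1 of 3 replicates cannot move a group mean by more than 1 SD, so the 108 member levels under this alternative say nothing about stability. Depth limits the members below about 0.1 RPKM, where a value rests on 3 reads or fewer of a transcript of 2 kb.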
